A study of Mus musculus with 502 samples.

Results

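The transcripts of cytotoxic lymphocytes were followed through 10 genes, Gzma, Gzmb, Prf1, Nkg7, Ccl5, Klrb1c, Ncr1, Klrd1, Tbx21 and Eomes, taken by symbol from the 46603 gene rows of the count table. All 10 rows were found, and 0 of them were empty in the series. The genes were measured in 502 single Cd45+ cells sorted as propidium iodide negative singlets from kidneys of wild-type CD1 mice, an outbred stock, about 3 weeks of age. Fresh cells came from kidneys digested on the day of removal. Preserved cells came from uncut kidneys that had been stored cold for 6 h or for 1, 2, 3 or 4 days in HTS-FRS, an organ preservation solution. The organs were not perfused. Kidneys, or parts of them, from the same mouse were pooled for a timepoint, and blood cells of the unperfused organ can be among the sorted cells. The title of each cell carries a code that was taken as its library pool. In pool IM793, 75 cells were fresh, 76 had been preserved for 6 h, 78 for 2 days and 2 for 4 days. In pool IM834, 81 were fresh, 75 were from day 1, 82 from day 3 and 19 from day 4. The 14 cells of pool IM790 were from day 4. Timepoint and pool are therefore confounded except where fresh cells of the same pool can serve as the comparison.

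Killer lymphocytes comprise natural killer (NK) cells, which carry no T cell receptor, and cytotoxic T cells, which carry one together with the CD3 chains. Both store perforin and granzymes in granules and release them onto a target cell, and both are directed towards this programme by T-box transcription factors. Among the 10 genes, Gzma and Gzmb encode granzymes (serine proteases), Prf1 encodes the pore-forming protein perforin, Nkg7 encodes a granule membrane protein and Ccl5 encodes a chemokine released by activated lymphocytes. Klrb1c encodes NK1.1, Ncr1 encodes the activating receptor NKp46 and Klrd1 encodes CD94, which pairs with NKG2 chains. Tbx21 and Eomes encode the T-box factors T-bet and Eomesodermin. Cd3e, which encodes a CD3 chain of the T cell receptor complex, was used to split the cells.

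In the GRCm38 annotation (GENCODE), the effector genes lay at chr13:113093825-113100981 (Gzma, minus strand), chr14:56258838-56262260 (Gzmb, minus), chr10:61297833-61304680 (Prf1, plus), chr7:43437073-43438249 (Nkg7, plus) and chr11:83525778-83530518 (Ccl5, minus). The receptor genes lay at chr6:128778485-128789215 (Klrb1c, minus), chr7:4337724-4345164 (Ncr1, plus) and chr6:129591782-129598775 (Klrd1, plus). The factor genes lay at chr11:97098071-97115331 (Tbx21, minus) and chr9:118478212-118486132 (Eomes, plus). All are protein coding. Reads were counted without regard to strand, so the values of Eomes, which overlaps the antisense gene Gm33460, of Klrb1c, which overlaps Gm44511, and of Cd3e, which overlaps Gm48719 and Gm48720, are uncertain to that extent. Klrb1c and Klrd1 also have close paralogues among the Klr genes.

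RUNX proteins take part in the killer programme beside the T-box factors, so the 250 bases before the RefSeq start were searched on both strands for the RUNX core TGTGGT and the T-box word GGTGTGA, whose end letters can overlap. A window was given for 8 of the 10 genes (not for Ccl5 and Klrd1). The RUNX core was present in 6 of these 8, against 14% of 32851 windows of the same length, and the T-box word in 1 of 8 (Nkg7), against 3.33%. The match nearest to the start is shown for each of the 6, in GRCm38.p6 from RefSeq, 5′ to 3′ on the strand of the gene, with the match in capitals (ACCACA is the same word on the other strand). The windows are at chr13:113101006-113101051 (Gzma), chr14:56262343-56262388 (Gzmb), chr10:61297686-61297731 (Prf1), chr7:43437035-43437080 (Nkg7, 8 of its bases in the first annotated exon), chr6:128788705-128788750 (Klrb1c, inside the annotated gene but in none of its exons) and chr7:4337654-4337699 (Ncr1).
Gzma: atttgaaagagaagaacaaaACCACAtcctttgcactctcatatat
Gzmb: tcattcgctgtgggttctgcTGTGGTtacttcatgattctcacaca
Prf1: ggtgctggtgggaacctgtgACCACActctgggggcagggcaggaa
Nkg7: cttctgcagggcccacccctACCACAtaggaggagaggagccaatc
Klrb1c: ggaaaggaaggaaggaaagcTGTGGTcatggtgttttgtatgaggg
Ncr1: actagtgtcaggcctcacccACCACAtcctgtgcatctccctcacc
The matched word began 50, 34, 130, 83, 89 and 50 bases before the start, in this order. RefSeq gives Ncr1 a pair of starts, and the same word began 41 bases before the other. A match of 6 letters is a description of the sequence and says nothing of binding in these cells. The windows of Tbx21 and Eomes held neither word.

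Counts per cell on genes ran from 1759 to 1895431, with a median of 695188, and medians by timepoint lay between 502597 (day 1) and 962322 (6 h). Ptprc, which encodes Cd45 itself, was read in 90.8% of cells, but in 8 of the 19 day 4 cells of pool IM834 (42.1%). Of 317 index pairs, 53.3% were used in 2 pools and 8 pairs in 3, and 0 occurred more than once within a pool. Since the labels tie no cell to an animal, a timepoint is a single sample, and differences between timepoints were described without a test. Shares are given with exact Clopper-Pearson intervals at the 95% level. The reads carry no molecular identifiers, so all intervals cover counting error only.

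The 10 genes were rare in the sorted cells and, where read, were mostly read deeply. Nkg7 was read in 47 of the 502 cells (9.36%, 6.96 to 12.3%), Ccl5 in 34, Klrd1 and Tbx21 in 29 each, Klrb1c in 26, Gzma in 19, Ncr1 in 16, Prf1 in 15 and Gzmb in 10. Eomes was the least often read, in 5 cells (0.996%, 0.324 to 2.31%). A total of 79 cells (15.7%, 12.7 to 19.2%) had at least 1 of the genes. Over the 230 detections the median was 485 reads, and 26 detections had fewer than 10 reads. Levels, in reads per 1000000 counts on genes (rpm), spread over orders of magnitude within a gene. Gzma ran from 0.836 to 9221 rpm with a median of 2192 over its 19 cells, Ncr1 from 7.42 to 5194 with a median of 2129, and Nkg7 from 0.943 to 5268 with a median of 1378. Medians were lower for Prf1 (988 rpm), Tbx21 (876), Eomes (398), Klrd1 (295) and Gzmb (257.8), and lowest for Ccl5 (151.5) and Klrb1c (40.7). Klrb1c had the most detections under 10 reads (8 cells), followed by Nkg7 and Ccl5 with 4 each.

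**Figure D1:**
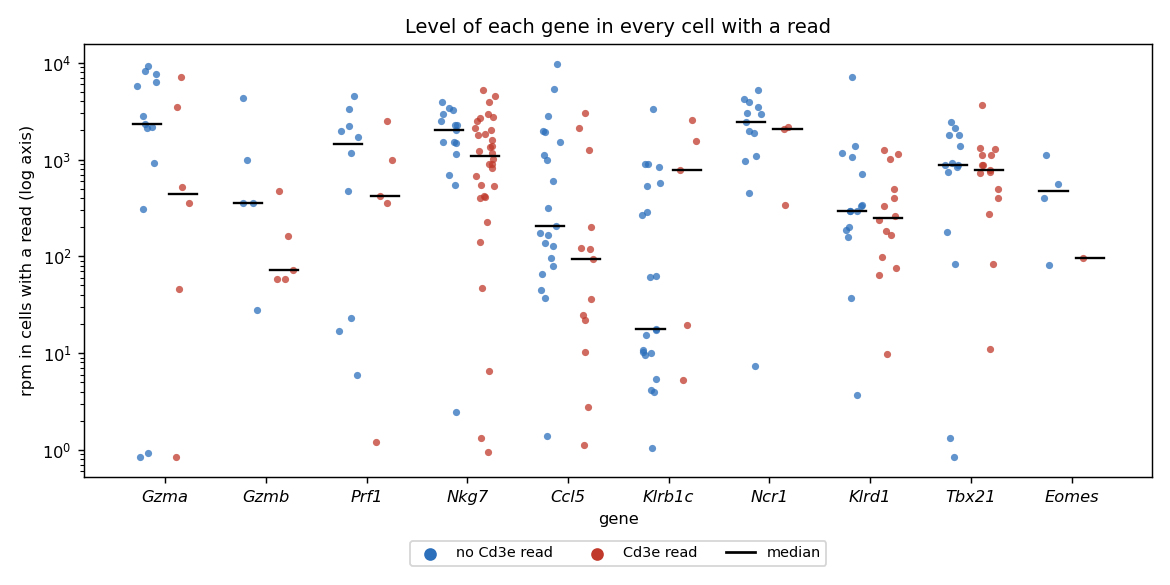
Level of each gene, in rpm on a log axis, in every cell with at least 1 read, split by a read of Cd3e (blue without, red with); bars are medians and cells without a read are not drawn. Most points lie above 100 rpm, whereas Klrb1c without Cd3e has a second group of cells near 10 rpm.

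The genes gathered in few cells. Of the 502 cells, 423 had 0 of the 10 genes, 39 had 1, 10 had 2, and 30 (5.98%, 4.07 to 8.42%) had 3 or more. At the limit of 3 genes, 10 cells lay just below with 2 genes and 7 lay on it. At the upper end, 12 cells had 7 or more, 5 of them had 9, and 0 had all 10. The 30 cells with 3 or more genes held all cells with Gzmb (10), Prf1 (15) and Eomes (5), 15 of the 16 with Ncr1, 15 of the 19 with Gzma and 24 of the 29 with Tbx21. They held 19 of the 34 with Ccl5 and 15 of the 26 with Klrb1c. Nkg7 was read in all 30, at a median of 1936 rpm, and in 17 further cells at a median of 674 rpm.

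**Figure D2:**
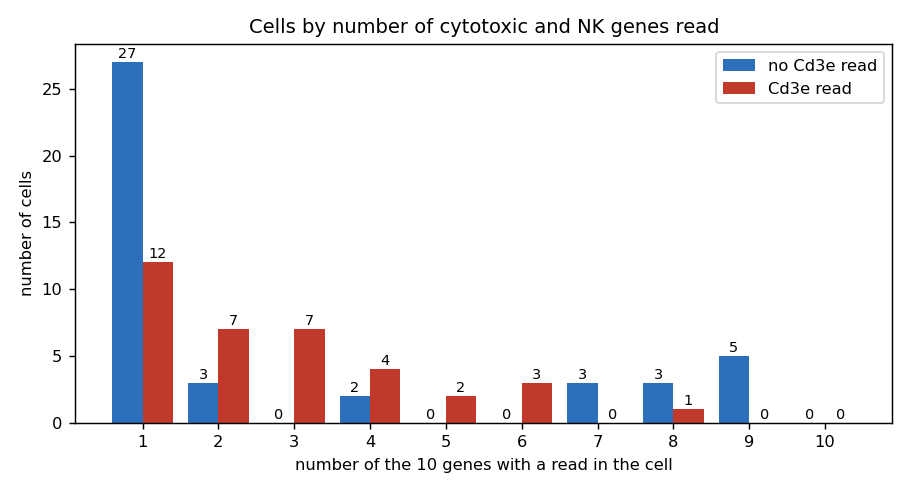
Number of cells (bar height and printed value) by how many of the 10 genes had a read, from 1 to 10, without (blue) and with (red) a read of Cd3e; the 423 cells with none are not drawn. Cells with a Cd3e read stop at 6 genes apart from 1 cell at 8, and cells without one have 4 or fewer, or 7 to 9.

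Co-detection was measured for each of the 45 pairs by the Jaccard index, the number of cells with both genes over the number with either. All pairs shared at least 1 cell. The index ran from 0.0541 to 0.551 with a median of 0.310. Nkg7 and Tbx21 were the closest pair, with 27 shared cells (0.551). Next were Prf1 with Ncr1 (11 cells, 0.550), Gzma with Prf1 (12 cells, 0.545) and Gzma with Ncr1 (12 cells, 0.522). The order was not the same within pool IM793. There Klrb1c with Ncr1 stood at 0.75, above Prf1 with Ncr1 (0.6) and Gzma with Prf1 or Ncr1 (0.526 each). Klrb1c and Ncr1 shared 14 cells (0.5). Every one of the 15 Prf1 cells, the 10 Gzmb cells and the 5 Eomes cells had Nkg7, and all 5 Eomes cells and 14 of the 15 Prf1 cells had Klrd1. The indices of Eomes were low throughout, from 0.0541 with Ccl5 to 0.176 with Prf1, and a gene read in 5 cells cannot reach a high index beside one read in 34. On the log2(rpm + 1) scale, the correlation of each gene with the mean of the other 9 across the 502 cells was highest for Ncr1 (r = 0.84), Gzma (0.82) and Tbx21 (0.81) and lowest for Gzmb (0.55) and Eomes (0.36). These are descriptions across cells that share libraries and depth.

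**Figure D3:**
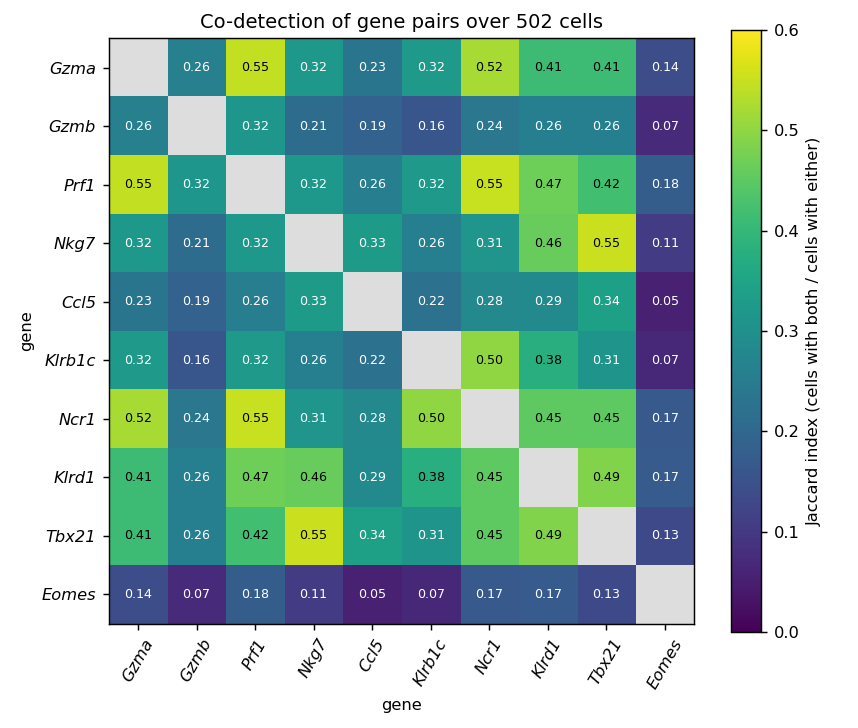
Jaccard index of each pair of genes over 502 cells (colour and printed value; grey on the diagonal). Gzma, Prf1 and Ncr1 share indices of 0.52 to 0.55, Nkg7 pairs most closely with Tbx21, and the Eomes row is low throughout.

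The granzymes were only partly read in the same cells. Gzma and Gzmb shared 6 cells, 13 cells had Gzma without Gzmb and 4 had Gzmb without Gzma. All 4 cells with Gzmb alone had Cd3e. Without Cd3e, 5 cells had both and 8 had Gzma alone. Perforin was read in 4 of the 6 cells with both granzymes, 8 of the 13 with Gzma alone, 2 of the 4 with Gzmb alone and 1 cell with neither. The levels differed too. Gzmb had a single cell at 4290 rpm, a fresh cell of pool IM793, and otherwise ran from 27.7 to 992 rpm, whereas Gzma had a median of 2192 rpm.

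The T-box factors overlapped in 4 cells. Tbx21 was read without Eomes in 25 cells and Eomes without Tbx21 in 1. The 4 cells with both factors had no Cd3e, all had Nkg7 and 3 of them had Ncr1, Gzma and Prf1 reads, with a median of 8.5 of the 10 genes. The 25 cells with Tbx21 alone had a median of 5 genes, and 15 of them had Cd3e. Eomes levels were 1116 rpm in a fresh cell, 557 and 81.2 rpm in a pair of 6 h cells, and 398 rpm in a day 3 cell, all without Cd3e, and 96.2 rpm in the fresh cell with Cd3e. Among the 472 cells with neither factor, 5 had 3 or more of the genes.

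Cd3e divided the 30 cells into 13 without and 17 with a read (56.7% with, 37.4 to 74.5%), and the groups differed in how many of the genes they held. Of the 13 cells without Cd3e, 11 had 7 to 9 genes and 2 had 4. Of the 17 with Cd3e, 16 had 3 to 6 genes and 1, a 6 h cell, had 8. Without Cd3e, the genes were read in this many of the 13 cells: Nkg7 13, Ncr1 12, Klrd1 12, Tbx21 12, Gzma 11, Klrb1c 11, Prf1 10, Ccl5 8, Gzmb 5 and Eomes 4. With Cd3e, the counts of 17 were Nkg7 17, Tbx21 12, Klrd1 11, Ccl5 11, Gzmb 5, Prf1 5, Gzma 4, Klrb1c 4, Ncr1 3 and Eomes 1. The counting intervals of the shares without and with Cd3e did not overlap for Ncr1 (63.97 to 99.8% and 3.8 to 43.4%) or for Gzma and Klrb1c (54.6 to 98.1% and 6.81 to 49.9% for each). They overlapped for Prf1, Gzmb, Ccl5, Klrd1, Tbx21 and Eomes, and Nkg7 was read in all cells of both sides. These counts are not independent of the choice of cells by number of genes. The share of all genes with intervals that did not overlap was not counted, so it is not known whether these genes stand out.

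**Figure D4:**
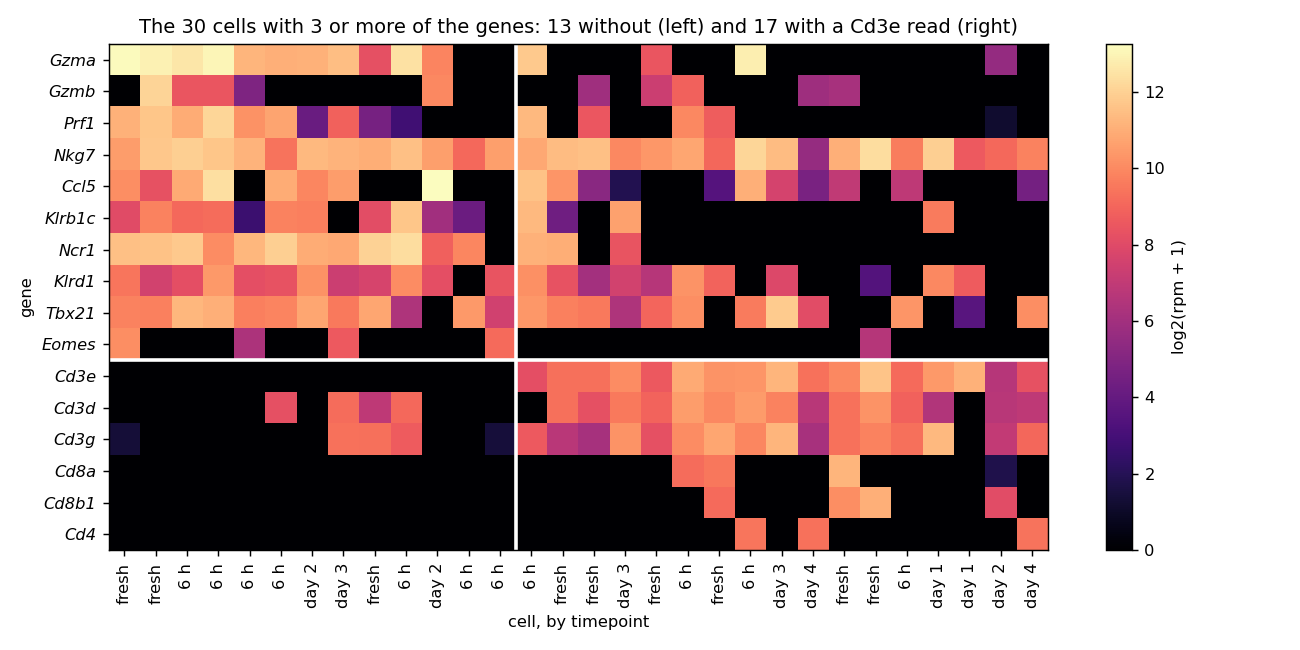
Expression, as log2(rpm + 1), of the 10 genes and of Cd3 and co-receptor genes (rows) in the 30 cells with 3 or more of the genes (columns, labelled by timepoint and sorted by the number of genes within each side). The 13 cells left of the white line have no Cd3e read and fill most rows above the horizontal line except Gzmb and Eomes; Cd8a, Cd8b1 and Cd4 are dark in all of them.

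Levels were also set side by side over all cells with a read. Gzma had a median of 2328 rpm in 13 cells without Cd3e and 441 rpm in 6 with it, but 2828 rpm in 11 and 1915 rpm in 4 among the 30 cells with 3 or more genes. Prf1 had 1440 rpm in 10 cells without and 416 rpm in 5 with Cd3e, and Gzmb had 357 and 71.5 rpm in 5 cells each. The ranges overlapped for each of these genes, since the highest Gzma cell with Cd3e reached 7173 rpm and the lowest without it 0.836 rpm. Nkg7 medians were 2035 rpm in 15 cells and 1085 rpm in 32, Tbx21 medians 883 and 773, Klrd1 medians 296 and 249.06, and Ncr1 medians 2444 in 13 cells and 2071 in 3. Klrb1c went the other way, with 17.8 rpm in 21 cells without Cd3e and 781 rpm in 5 with it, but 537 rpm in 11 and 1176 rpm in 4 among the 30. Of its cells with fewer than 3 of the genes, none passed 22 reads.

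Per length, on the scale of reads per kilobase of exon and 1000000 counts (RPKM), the order of median levels over the 13 cells without Cd3e, cells at 0 included, was Nkg7 (2504), Gzma (2314), Ncr1 (1587), Ccl5 (1019), Tbx21 (356), Klrd1 (231.3), Prf1 (184.1) and Klrb1c (96.6), with Gzmb and Eomes at 0. The ranges of neighbours in this order overlapped in every case. In the 17 cells with Cd3e the medians were 1950 for Nkg7, 201.03 for Tbx21, 77.4 for Klrd1, 23.1 for Ccl5 and 0 for the other 6, beside 246.8 for Cd3e itself.

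Cd3e alone did not separate all CD3 transcripts from these cells. Of the 13 cells without a Cd3e read, 4 had Cd3d, 5 had Cd3g and 6 had either of them, 2 of these through Cd3g below 2 rpm. Trac, which encodes the constant region of the alpha chain, was read in 1 of the 13 (0.892 rpm) and in 16 of the 17 with Cd3e. Trbc1, of the beta chain, was read in 12 of the 13 and 8 of the 17, and Trdc, of the delta chain, in 6 of the 13 and 0 of the 17. Cd247, the zeta chain that NK receptors also use, was read in 7 and 12. Cd4, Cd8a and Cd8b1 were at 0 in all 13, which allows a share of up to 24.7% for each (the upper exact limit, as at other counts of 0). The counts of T cell markers therefore depend on the chain, and 7 cells with 3 or more of the genes had none of Cd3d, Cd3e and Cd3g.

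Markers of other cell types were next counted in the 13 cells. All 5 neutrophil, all 5 dendritic and all 3 erythroid markers were at 0 in each cell. Of the macrophage markers C1qa, C1qc, Adgre1 and Csf1r were at 0, and C1qb was read in 1 cell at 1.63 rpm. In 1 cell, from day 3, all 4 B cell markers were read, at a sum of 76.6 rpm. Kidney epithelial markers summed to 0 to 23.8 rpm. Of the ILC2 markers, Gata3 was read in 7 of the 13, Rora in 2, Il1rl1 in 1, and Nmur1, Il5 and Il13 in 0. The ILC2 list summed to a median of 87.5 rpm and at most 1714 rpm, and 2 of the 13 cells had 2 or more of its 6 genes. Its part in the counts was not tested. The 17 cells with Cd3e included 1 with all 4 B cell markers (8259 rpm) and 1 with all 5 macrophage markers (4075 rpm), whose part in the counts was not tested. Median depth was 1008135 counts in the 13 cells, 842945 in the 17 and 680654 in the other 472, and median genes per cell were 2575, 2630 and 1859.5.

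Within the cells with Cd3e (22.3% of the 502), Nkg7 differed most in share between co-receptor classes. It was read in 12 of the 14 cells with Cd8a or Cd8b1 and no Cd4 (85.7%, 57.2 to 98.2%), in 4 of the 45 with Cd4 alone (8.89%, 2.48 to 21.2%) and in 16 of the 52 with neither (30.8%, 18.7 to 45.1%). Klrd1 was read in 5 of 14, 0 of 45 and 9 of 52. Tbx21 was read in 1 of 14, 3 of 45 and 11 of 52. Ncr1 and Klrb1c were read in 0 of 14, 0 of 45 and 3 and 5 of 52, where 0 of 14 allows a share of up to 23.2%. For Gzma (2, 1 and 3 cells) and Ccl5 (3, 3 and 7 cells) the intervals of the classes overlapped. Of the 17 cells with 3 or more genes, 5 had Cd8a or Cd8b1, 3 had Cd4 and 9 had neither. Gamma chain constant genes (Tcrg-C1 or Tcrg-C2) were read in 7 of these 17 cells, in 3 of the 19 cells with Cd3e and 1 or 2 genes, and in 0 of the 76 with Cd3e and none of the genes. Trac was read in 8 of the 9 cells with neither co-receptor, and a gamma chain gene in 5.

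Other genes of killer cells, from lists made for this comparison, were read beside the 10. From here the 13 cells without Cd3e, the 17 with Cd3e and the 76 cells with Cd3e and none of the 10 genes are given in this order. Over the 24 receptors and adaptors of the list, the median gene was read in 38.5%, 14.7% and 0% of the cells, against 15.4%, 17.6% and 7.89% over all 12436 genes read in 10 or more cells. The adaptor Tyrobp (DAP12) was read in 11, 3 and 5 cells and the adaptor Fcer1g in 10, 4 and 4. The receptors Klrk1 (NKG2D) and Klrb1b were read in 10, 6 and 0 and in 10, 2 and 0. The genes named from each list were those read in the most of the 13 cells, so their high counts there follow from the choice. Others of the list, named after their values were seen, were read more widely with Cd3e, as the adaptor Hcst (7, 15 and 38) and the receptor Cd226 (4, 11 and 4). Tyrobp and Fcer1g are also myeloid genes and were read in 60.8% and 55.5% of the 472 remaining cells. Klra3, Klra8 and Klra9 were at 0 in all 502 cells, and the Klra genes differ between mouse strains and resemble each other, so their counts are uncertain in CD1 mice.

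Cytokine genes and their receptors were read in both groups with 3 or more of the genes. Il2rb, the beta chain of the receptors for interleukins 2 and 15, was read in 13 of 13, 17 of 17 and 10 of 76 cells, and in 25 of all 472 remaining cells. Il18rap was read in 9, 8 and 0, Ifng in 7, 12 and 1, Xcl1 in 7, 7 and 1 and Il18r1 in 7, 6 and 2. Interferon gamma levels were alike in median, 840 rpm in 7 cells and 817 rpm in 12, with ranges of 232.6 to 1272 and 44.8 to 8640 rpm. The median share over the 10 genes of this list was 46.2%, 41.2% and 1.97%.

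Of the 15 granule and killing genes, Ctsw (cathepsin W) was read in 13, 13 and 15 cells, Srgn, the granule proteoglycan serglycin, in 12, 15 and 58, and Serpinb9, an inhibitor of granzyme B, in 8, 10 and 4. The list medians were 38.5%, 35.3% and 5.26%. Among 7 transcription factors, Id2 was read in 13, 15 and 19, Txk in 9, 13 and 42 and Runx3 in 6, 6 and 10 cells, with list medians of 38.5%, 23.5% and 3.95%. Of the genes of residency and circulation, the integrin Itga2 (CD49b) was read in 4, 0 and 0 cells and the egress receptor S1pr5 in 4, 1 and 1. Cxcr6, a receptor of tissue lymphocytes chosen after its values were seen, was read in 2, 14 and 2 cells, so the groups with and without Cd3e differed most from each other in this list there. The list medians were 15.4%, 11.8% and 3.29%, against 15.4%, 17.6% and 7.89% over all genes.

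The genes most like the 10 were found by Pearson correlation of log2(rpm + 1) with the mean of the 10, across 502 cells and 12427 genes. They were Klrc2 (r = 0.78), Klrc1 (0.78), Il2rb (0.75), Klre1 (0.70), Xcl1 (0.66), Ctsw (0.65), Klra1 (0.64), Il12rb2 (0.62), Samd3 (0.61) and RP23.21F2.5 (0.59). Klrc1 and Klrc2, which encode the NKG2 chains that pair with CD94, were read in the same 16 cells, 9 without and 6 with Cd3e among the 30, and they are near copies whose reads may be split between them. Klre1 was read in 8 of the 13 and 3 of the 17, Klra1 in 5 and 5, Il12rb2 in 5 and 7, and Samd3 in 7 and 7.

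Genes of the cell cycle and of stress were counted by list. At least 2 of 12 cell cycle genes were read in 8 of the 13 cells, 9 of the 17, 6 of the 19 with Cd3e and 1 or 2 of the genes, 9 of the 76 with Cd3e and none, and 77 of the 347 with neither. The classes differed in genes read per cell, with medians of 2575, 2630, 2032, 1746.5 and 1864. Of the 20 stress and early response genes, a median of 13 was read in the 13 cells, 12 in the 17 and 12 in the other 472, with median sums of 13927, 9479 and 13128 rpm.

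Outside the 30 cells, levels depended on the gene. Nkg7 had a median of 477 reads in its 17 cells and Tbx21 276 reads in 5, whereas Klrb1c had 6 reads in 11 and Gzma 1 read in 4. Among cells without Cd3e, 27 had exactly 1 of the genes and 3 had a pair. Types were assigned from at least 2 genes among C1qa, C1qb and C1qc (macrophages), among Il1rl1, Nmur1, Il5 and Il13 (ILC2), or of the full list (B cells, neutrophils, dendritic cells). Ccl5 accounted for 12 of the 27 (1 to 2815 reads, median 66.5), and 3 of these cells were of the macrophage type, 2 neutrophils, 1 a B cell, 1 an ILC2 and 5 of none of these types. Klrb1c accounted for 8 (1 to 22 reads, median 6.5), and 4 of these cells were of the dendritic type. Gzma, Ncr1 and Tbx21 were each read alone in 1 cell with 1 read. Among the cells with 2 or more C1q genes and no Cd3e (27.3% of all), 0 had Gzmb, Prf1, Nkg7, Ncr1 or Eomes, which allows a share of up to 2.66%, and among 61 with neutrophil markers and no Cd3e all genes but Ccl5 (2 cells) were at 0, which allows up to 5.87%. Median depths of these cells were 611211 and 730695 counts. In 1 day 3 cell of none of these types Klrd1 stood at 7038 rpm, the highest value of that gene, with none of the other 9.

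Low Klrb1c reads went with its paralogue Klrb1b, a comparison made after the values were seen. Klrb1c was read in 11 cells with fewer than 3 of the genes, at 1 to 22 reads, and all 11 had more reads of Klrb1b (median 283). Of the 15 Klrb1c cells with 3 or more genes, 11 had Klrb1b, and it exceeded Klrb1c in 6. Whether reads were exchanged between these genes was not tested.

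The next question was how the genes stood after preservation, within the pool of each timepoint. In bulk sums, fewer cells of a type and less RNA per cell cannot be told apart, and here the cells can be counted. Cells with 3 or more of the genes made up 6 of the 75 fresh cells of pool IM793 (8%, 2.99 to 16.6%), 11 of 76 at 6 h (14.5%, 7.45 to 24.4%) and 3 of 78 at day 2 (3.85%, 0.800 to 10.8%). In pool IM834 they were 3 of 81 fresh cells (3.70%, 0.770 to 10.4%), 2 of the 75 day 1 cells (2.67%, 0.325 to 9.30%), 3 of the 82 day 3 cells (3.66%, 0.761 to 10.3%) and 0 of the 19 day 4 cells, which allows up to 17.6%. In pool IM790 they were 2 of 14 at day 4 (14.3%, 1.78 to 42.8%), and in pool IM793 they were 0 of 2. All intervals within a pool overlapped. With every cell thinned to 100000 counts, which left out 8 cells, the shares were 8.11%, 14.9% and 2.56% in pool IM793 and 2.5%, 1.35%, 3.70% and 0% in pool IM834.

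**Figure D5:**
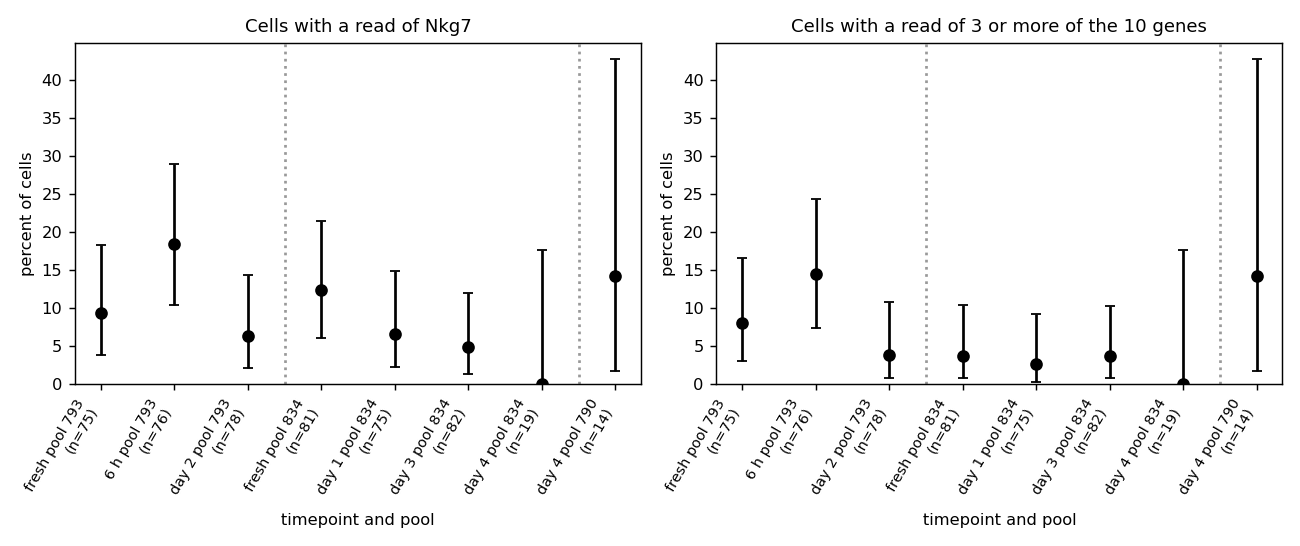
Percent of cells with a read of Nkg7 (left) and with 3 or more of the 10 genes (right) by timepoint and pool, with the number of cells in brackets; bars are exact Clopper-Pearson 95% intervals, which cover counting error only, and dotted lines separate the pools. The axis gives the pools without the letters IM, the 2 day 4 cells of pool IM793 are not drawn, and the intervals overlap within each pool.

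Both kinds of cell were found in fresh and preserved kidneys. Without Cd3e, the 13 cells came from fresh tissue (3), 6 h (7), day 2 (2) and day 3 (1), 11 of them in pool IM793 and 2 in pool IM834. With Cd3e, the 17 came from fresh tissue (6), 6 h (4), day 1 (2), day 2 (1), day 3 (2) and day 4 (2). Day 1 had 0 cells of the first kind among 75, and day 4 had 0 among 35. The pools also differed in their T cells, since Cd3e was read in 13.3% of the fresh cells of pool IM793 and 55.6% of those of pool IM834. Of these fresh T cells, 4 of 10 in pool IM793 (40%, 12.2 to 73.8%) and 2 of 45 in pool IM834 (4.44%, 0.543 to 15.1%) had 3 or more of the genes. Pool and animal cannot be told apart in this difference.

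Single genes are given next as counts of cells by timepoint, and for every gene the counting intervals of the timepoints overlapped within each pool. Nkg7 was read in 7 of 75 fresh cells, 14 of 76 cells after 6 h and 5 of 78 cells after 2 days in pool IM793. In pool IM834 it was read in 10 of 81 fresh cells, then in 5 (day 1), 4 (day 3) and 0 (day 4) of the preserved ones. Tbx21 was read in 6, 12 and 2 cells of pool IM793 and in 2, 1, 4 and 0 of pool IM834. Ncr1 was read in 3, 7 and 2 and in 1, 0, 3 and 0, and Gzma in 4, 9 and 4 and in 1, 0, 1 and 0. Prf1 was read in 3, 7 and 2 and in 2, 0, 1 and 0, and Klrd1 in 6, 8 and 2 and in 5, 2, 5 and 0. Ccl5 varied less in pool IM793 (7, 7 and 6 cells) and was read in 3, 0, 5 and 0 cells of pool IM834. At day 4 it was also read in 2 of 2 cells of pool IM793 and 4 of 14 of pool IM790 (28.6%, 8.39 to 58.1%). Gzmb was read in 9 cells of pool IM793 and 1 of pool IM790 but in 0 cells of pool IM834, which allows up to 1.43%. Klrb1c was read in 6 cells at day 1 against 1 fresh cell of pool IM834, and 5 of these 6 cells had 2 to 10 reads (3.98 to 61.7 rpm). In the cells with a read, Nkg7 medians were 2093, 1653 and 1128 rpm in pool IM793 and 919, 902 and 2394 rpm at fresh, day 1 and day 3 in pool IM834.

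Counts were also summed over all cells of a timepoint and compared with the fresh cells of the pool, as log2 ratios of counts per 1000000 (CPM). Genes entered when each sum reached 50 counts. At 6 h, 9 of the 10 genes passed this minimum, 6 were at least 2-fold higher than in fresh cells and 1 was at least 2-fold lower, where 21.5% of all 10346 genes were higher and 15.1% lower. The median ratio of all genes was 0.16. Ccl5 stood at 24.4 CPM in fresh and 213.7 CPM in 6 h cells (3.13), Klrd1 at 13.5 and 85.7 (2.66), Klrb1c at 20.2 and 99.9 (2.31), Prf1 at 58.2 and 207.7 (1.83), Gzma at 134.8 and 464 (1.78) and Tbx21 at 81.3 and 201.3 (1.31). Cd3e itself was 1.28 higher. Nkg7 (0.61) and Ncr1 (0.85) lay within 2-fold. Gzmb was lower, at 72.03 and 19.7 CPM (-1.87), but 93.1% of its fresh counts came from 1 cell, and without the top cell on each side the ratio was 1.32, 8 genes were higher and 0 lower, where 21.6% of 9647 genes were higher and 20% lower. In that setting Gzma stood at 4.44, Prf1 at 4.29, Klrb1c at 3.43 and Ncr1 at 1.59. That same fresh cell gave 89.03% of the fresh Gzma counts. Cells with 3 or more of the genes numbered 6 in fresh tissue and 11 at 6 h. Ccl5 was read in 7 cells on each side and Gzmb in 4, whereas each of the other genes was read in more cells at 6 h. Among cells with a read, the Ccl5 medians were 122.2 rpm in fresh and 1967 rpm in 6 h cells. The parts of cell number and of level per cell in these sums were not tested.

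At day 2, 8 genes passed, 5 were at least 2-fold lower and 1 higher, where 18.4% of 9864 genes were lower and 27.1% higher, and the median of all genes was 0.23. Gzmb (-2.72), Ncr1 (-2.20), Nkg7 (-1.71), Gzma (-1.66) and Tbx21 (-1.63) were lower, whereas Cd3e was 1.17 higher. Without the top cell on each side, Nkg7 (-2.44) and Ncr1 (-3.79) remained past 2-fold, Gzma (-0.46) did not, Tbx21 (-11.59) was left with 1 of its 1808 day 2 counts, and the day 2 counts of Gzmb came from 1 cell. Klrb1c (-0.64) and Klrd1 (0.59) lay within 2-fold over all cells but at -3.09 and -1.54 without the top cells, so the genes past the limit depended on single cells. Ccl5 was higher (2.41), with 82.9% of its day 2 counts in 1 cell, and stood at 0.93 without the top cells. Prf1 had 18 counts at day 2 against 2945 in fresh cells and was below the minimum.

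In pool IM834 the sums rested on fewer cells. At day 1, 3 genes passed, of which Klrb1c was at least 2-fold higher (1.73, with 93.02% of the counts in 1 cell) and 0 were lower, where 20.1% of 9492 genes were higher and 21% lower. Nkg7 stood at -0.71 and Klrd1 at 0.03, beside -1.59 for Cd3e. Gzma, Prf1, Ccl5, Ncr1 and Eomes had 0 counts in 75 cells at day 1, beside 5660, 1690, 754, 1810 and 753 counts in 81 fresh cells, most of them from 1 fresh cell without Cd3e. At day 3, 9 genes passed, 2 were higher and 1 lower, where 21.1% of 9325 genes were higher and 22.4% lower. Klrb1c (3.33) and Prf1 (-1.66) each rested on 1 cell at day 3, and Ccl5 (1.26) had 93.4% of its counts in 1 cell. Cd3e stood at -2.71. At day 4 all 10 genes and Cd3e had 0 counts in 19 cells, so 0 passed, where 33.2% of 4952 genes were higher and 22.8% lower. With 1 or a few cells behind each sum, these ratios describe the cells drawn and not the timepoint.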

How the data were processed

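Each sorted cell gave 1 SmartSeq2 library. Before deposit, the authors shortened reads to 75 bp, removed duplicates (picard), mapped with STAR to GRCm38 and counted per gene with HTSeq, strand ignored (tool versions not stated). The deposited values are raw counts, 1 column per cell, not normalized. The 96 ERCC rows (0.000185% of counts) and 1 vector row (0.139%) were left out. Doublets were not called, since singlets were sorted.

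Counts were divided by the cell total on genes to give rpm. A gene was read in a cell with at least 1 read. The 10 genes, the lists and the splits were chosen with earlier results of these data known. Named genes were the 10, CD3 and type markers, the 3 genes of each list read in the most cells with 3 or more of the 10 and no Cd3e (ties included), residency genes read in at least 3 such cells, and the 10 most similar genes. A gene that this rule names is not reported here. A cell was assigned to another type with no Cd3e and at least 2 type genes (C1qa, C1qb and C1qc for macrophages, Il1rl1, Nmur1, Il5 and Il13 for ILC2, the full marker list otherwise), and 17 cells carried more than 1 type. Sums were compared without a test, with TMM (edgeR 4.0.16), size factors (DESeq2 1.42.0), no minimum, all fresh cells, and without the top cell as alternatives. Python 3.11.15, pandas 2.3.3, scipy 1.17.1 and R 4.3.3 were used, and scripts were tested on simulated data. Promoter sequences came from RefSeq (GRCm38.p6) and gene positions from GENCODE (GRCm38).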

Additional observations from a re-analysis of the deposited data

How the results depend on the processing

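The share of cells with a read of each of the 10 genes stayed within its counting interval with at least 10 reads, at least 10 rpm or thinned counts. The median Jaccard index stayed between 0.222 and 0.400 under the alternatives run. The share of cells with 3 or more genes that had Cd3e (56.7%) became 76.7% with any of Cd3d, Cd3e and Cd3g and 75% in pool IM834 alone (8 cells), but was 45% in pool IM793 alone (20 cells) and 51.9% with thinned counts. Without the 6 h cells, a setting not planned beforehand, it was 68.4% (19 cells). In that setting 4.46% of all cells had 3 or more genes, in place of 5.98%. TMM and DESeq2 size factors moved the median of all genes to between -0.01 and 0.06 and changed no call. Without the top cell, the count of lower genes at 6 h went from 1 to 0, higher genes at day 2 from 1 to 0, higher genes at day 1 from 1 to 0, and at day 3 higher genes from 2 to 0 and lower genes from 1 to 0. The genes of the 10 compared fell in this setting from 8 to 7 at day 2, 3 to 2 at day 1 and 9 to 4 at day 3, where Klrb1c and Prf1 had no value left. Over all genes, 24% (day 2), 23.7% (day 1) and 22.7% (day 3) were then higher and 29.5% lower at day 3. The ratio of Gzmb at 6 h turned from -1.87 to 1.32 in this setting. Against all fresh cells, 0 genes were lower at 6 h (15.3% of all genes) and 0 higher at day 1 (19.2% of all genes), where Klrb1c turned from 1.73 to -0.038. Without a minimum, 6 of 9 genes compared were lower at day 1 in place of 0 of 3, where 26% of 16376 genes were lower, and the added genes include those with 0 counts at day 1. Of the 10 most similar genes, 5 were among the top 10 by Spearman. No paired analysis was possible because the labels tie no cell to an animal. Depth limits the detection of a gene to cells with enough counts, and 8 cells had fewer than 100000.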
